A study of Homo sapiens with 12 samples.

Results

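The genes described here are 42 members of the transforming growth factor beta (TGF-beta), bone morphogenetic protein (BMP) and activin signalling pathway, taken by symbol from a named list and found among 23583 features of a gene count table. They comprise 8 ligands, 5 latent TGF-beta binding or TGF-beta-induced matrix proteins, 5 type I receptors, 4 type II receptors, 2 coreceptors, 6 receptor-regulated or common SMADs, 9 inhibitors and 3 transcriptional targets of BMP. After the filter on low counts 41 of the 42 could be tested. PMEPA1, which encodes a membrane protein that limits TGF-beta signalling, was the exception, with a count of 0 in all 12 libraries. Of the features, 3854 carry only an assembled identifier, and whether reads of PMEPA1 were assigned to one of them was not tested, so the 0 does not show that the gene was silent.

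Ligands of this family are secreted dimers that bring type II and type I receptor kinases together at the cell surface. In general TGF-beta and activin receptors phosphorylate SMAD2 and SMAD3, BMP receptors phosphorylate SMAD1, SMAD5 and SMAD9, and both groups of SMADs enter the nucleus with SMAD4. TGF-beta is stored in the matrix as a latent complex with LTBP proteins, and in liver the pathway is known for its part in fibrosis, growth arrest of hepatocytes and, by BMP, control of iron through hepcidin.

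RNA sequencing was done in 2 human hepatocellular carcinoma (HCC) cell lines after silencing of circASH2, a circular RNA named after the gene ASH2L, in a study concerned with metastasis. The 4 groups of 3 libraries were HCCLM3 with siRNA against circASH2 (HCCLM3 si-circASH2), HCCLM3 with control siRNA (HCCLM3 si-NC), Huh7 with siRNA against circASH2 (Huh7 si-circASH2) and Huh7 with control siRNA (Huh7 si-NC). Both are cancer lines, and all groups were grown without the other cells of a liver. Whether the 3 libraries of a group were separate cultures is not stated in the labels, and the p-values therefore rest on variation between libraries that could be technical alone. Values are CPM, counts scaled to library size with TMM factors, errors beside a level are the SD of 3 libraries, and errors beside a log2 fold change are standard errors. A value printed with only an edgeR adjusted p beside it is a log2 fold change.

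Total counts lay between 29006781 and 30858895 per library, and 3 counts in 1 library, the level below which a value was not read, corresponded to 0.0981 to 0.105 CPM. Linear ASH2L, which shares its gene with the circle, had 27.5 ± 0.969 CPM in HCCLM3 si-circASH2 and 32.4 ± 1.59 CPM in HCCLM3 si-NC, and 67 ± 1.33 CPM in Huh7 si-circASH2 and 76.5 ± 3.21 CPM in Huh7 si-NC (SD, n = 3 each). It was called lower in both lines without overlap, by -0.24 ± 0.05 (edgeR adjusted p = 0.0014) in HCCLM3 and -0.19 ± 0.05 (edgeR adjusted p = 0.00304) in Huh7. The part of lower ASH2L in the results below was not tested. The circle itself was not matched to a feature, so the knockdown was not checked on its target. Of 10 hepatocyte markers, 7 reached 1 CPM in both HCCLM3 groups and 10 in both Huh7 groups. ALB, the serum albumin gene, was at 3.24 CPM in HCCLM3 si-NC and 9866 CPM in Huh7 si-NC, and GPC3, a hepatoma marker, was at 0 in every HCCLM3 library. Of 9 fibroblast markers 2 reached 1 CPM in HCCLM3 and 5 in Huh7; their summed level was 49.6 to 54 CPM in HCCLM3 si-circASH2 and 36.1 to 38.6 CPM in HCCLM3 si-NC, and 59.9 to 61.2 CPM in Huh7 si-circASH2 and 37.9 to 43.5 CPM in Huh7 si-NC. Most of these sums came from LUM in HCCLM3 and COL1A2 in Huh7, while THY1 was at 0 in both Huh7 groups and in HCCLM3 si-NC. Of 7 leukocyte markers, led by CD68 in HCCLM3 and LYZ in Huh7, 2 reached 1 CPM in HCCLM3 and 4 in Huh7, with sums of 177 to 213 CPM in HCCLM3 si-circASH2 and 151 to 172 CPM in HCCLM3 si-NC, and 340.3 to 368 CPM in Huh7 si-circASH2 and 384 to 421 CPM in Huh7 si-NC. Of 7 endothelial markers 2 reached 1 CPM in HCCLM3 and 1 in Huh7, with sums of 20 to 22.1 CPM in HCCLM3 si-circASH2 and 26.1 to 27.9 CPM in HCCLM3 si-NC, and 23.7 to 24.4 CPM in Huh7 si-circASH2 and 24.1 to 27.5 CPM in Huh7 si-NC. CD3E and the endothelial markers TIE1 and CLEC14A were at 0 in every group. The part of these markers in the results below was not tested.

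With circASH2 silenced, pathway genes changed in both lines, and for 15 of them the change differed between the lines. In HCCLM3 cells 6 members were higher, 11 were lower and 24 did not pass the threshold (edgeR adjusted p under 0.05), so that 41.5% of the 41 tested were called, against a background of 30.6% of all 16946 features tested. In Huh7 cells 10 were higher, 8 were lower and 23 did not pass, or 43.9% called, against a background of 31.4%. By direction the background was 15.1% higher and 15.5% lower in HCCLM3, and 16.3% higher and 15.1% lower in Huh7. This background includes 2505 features with only an assembled identifier. Among 13989 tested genes with an annotated untranslated 3′ end, which all members have, the shares were larger. They were 16.5% higher and 17.2% lower in HCCLM3, and 17.8% higher and 17.3% lower in Huh7. The median log2 fold change of the 41 members was -0.08 in HCCLM3 and 0.03 in Huh7, beside 0 and 0.01 over all features. The median size of the change regardless of sign was 0.16 in HCCLM3 and 0.17 in Huh7 for the members, beside 0.17 and 0.18 for all features. The count of 6 in HCCLM3 was 3 without HCCLM3 si-NC replicate 1, and the count of 10 in Huh7 was 6 without Huh7 si-NC replicate 1.

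**Figure D1:**
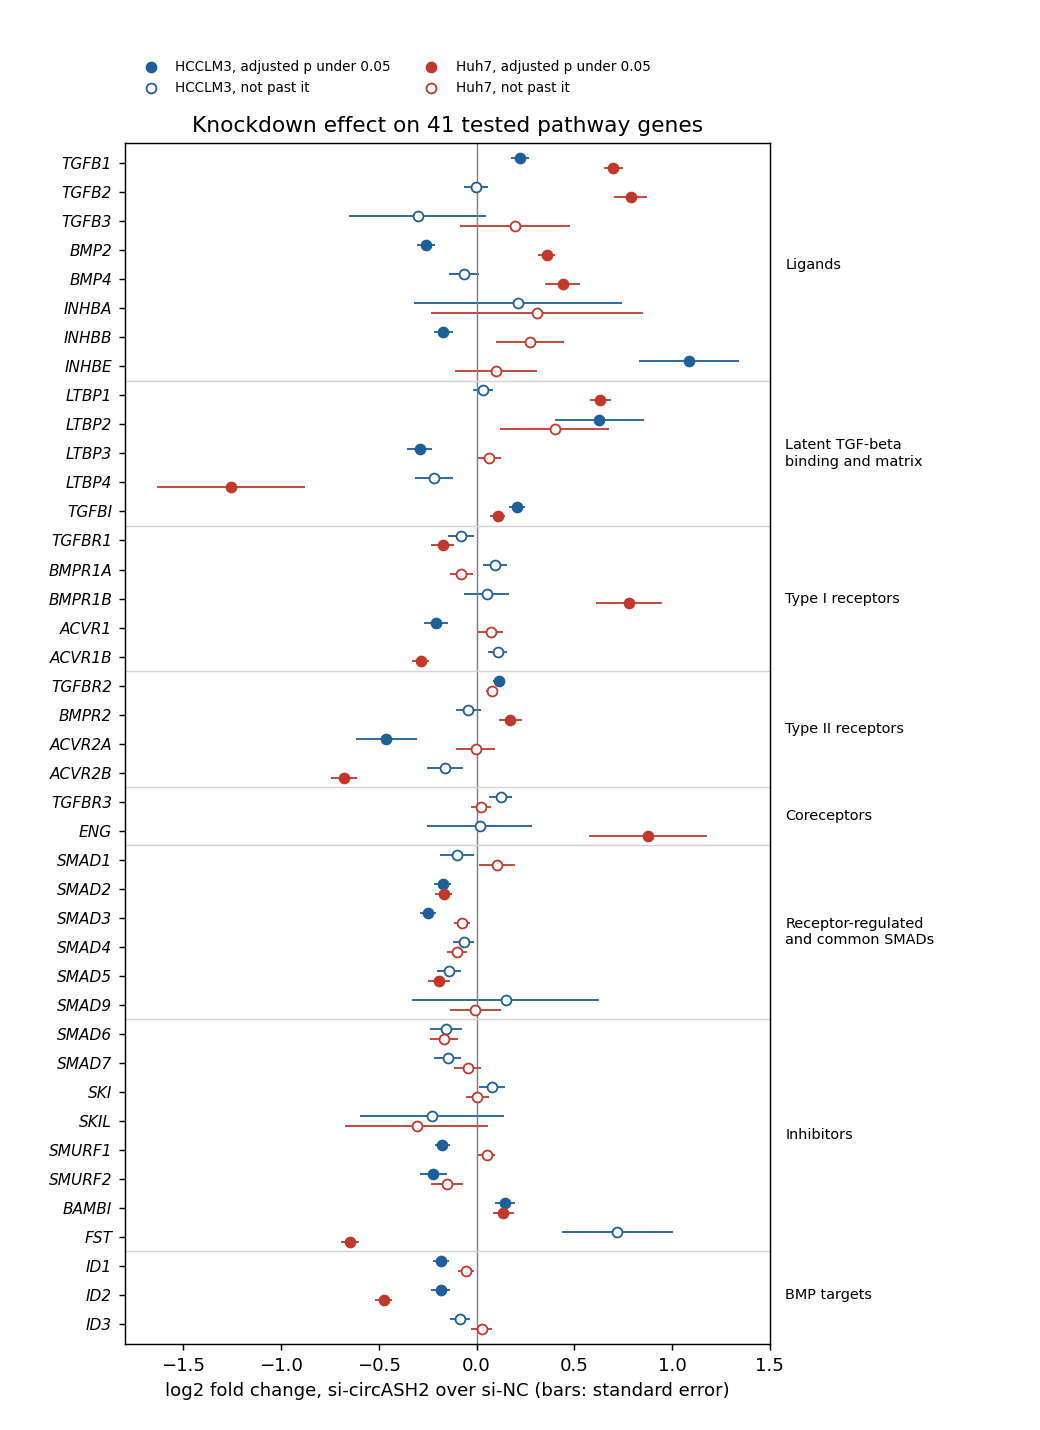
Log2 fold change of si-circASH2 over si-NC for the 41 tested genes, ordered by role, with HCCLM3 in blue above Huh7 in red; bars are standard errors and filled points have an edgeR adjusted p under 0.05. TGFB1 lies right of 0 in both lines (0.22 in HCCLM3 and 0.70 in Huh7), whereas BMP2 lies left of 0 in HCCLM3 (-0.26) and right of 0 in Huh7 (0.36).

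Read gene by gene, 3 members were higher in both lines (TGFB1, TGFBI and BAMBI), 2 were lower in both (SMAD2 and ID2), and 1, BMP2, was lower in HCCLM3 and higher in Huh7. A further 11 passed in HCCLM3 alone, 12 passed in Huh7 alone and 12 passed in neither, which by itself does not show that the lines differed. Such joint counts over both lines were not made for all features, so they list the members and are not read as particular to them. The difference itself was tested as the HCCLM3 effect minus the Huh7 effect. It passed for 15 of 41 members (36.6%, against a background of 20.9% of all features), being positive for 5 (background 9.6%) and negative for 10 (background 11.3%). When the authors' FPKM replaced the counts in limma, 6 of the 17 HCCLM3 calls were lost in 1 or more of the 3 fits (INHBB, ACVR2A, SMAD2, SMURF2, BAMBI and ID2). The same held for 9 of the 18 Huh7 calls (LTBP4, TGFBI, TGFBR1, BMPR1B, BMPR2, SMAD2, SMAD5, BAMBI and ID2) and 6 of the 15 calls of the difference (INHBE, BMPR1B, ACVR1, SMAD3, SMURF1 and ID2). In bulk RNA, fewer cells of a kind and less RNA per cell cannot be told apart, and this holds for every value below.

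Among the ligands, TGFB1, the main TGF-beta of epithelial and immune cells, was higher after knockdown in both lines. In HCCLM3 it had 188, 191 and 189.9 CPM in HCCLM3 si-circASH2 libraries, against 163, 159 and 166 CPM in HCCLM3 si-NC libraries. In Huh7 it had 76.2, 63.9 and 72.1 CPM in Huh7 si-circASH2 libraries, against 42.6, 43.4 and 44.4 CPM in Huh7 si-NC libraries. In neither line was there overlap between groups, and in Huh7 replicate 2 was the lowest of the 3 knockdown libraries. Its log2 fold change was 0.22 ± 0.05 (edgeR adjusted p = 0.00063) in HCCLM3 and 0.70 ± 0.05 (edgeR adjusted p = 2.33e-10) in Huh7. On the log2 scale the rise was smaller in HCCLM3, with a difference of -0.48 ± 0.07 (edgeR adjusted p = 1.46e-05). In CPM the step was similar, from a mean of 163 to 190 CPM in HCCLM3 and from 43.5 to 70.7 CPM in Huh7.

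TGFB2, a TGF-beta isoform that needs TGFBR3 for efficient receptor binding, changed in Huh7. Its levels were 78.9, 78.2 and 73.4 CPM in HCCLM3 si-circASH2 libraries, against 78.8, 79.8 and 72.4 CPM in HCCLM3 si-NC libraries. They were 15.8, 20.3 and 16.3 CPM in Huh7 si-circASH2 libraries, against 9.71, 10.5 and 10.2 CPM in Huh7 si-NC libraries. All 3 Huh7 knockdown libraries lay above all 3 Huh7 controls, while the HCCLM3 groups overlapped. In log2 terms the change was 0.00 ± 0.06 (edgeR adjusted p = 1) in HCCLM3, with an interval of -0.13 to 0.12 (estimate plus or minus 2 standard errors), and 0.79 ± 0.08 (edgeR adjusted p = 1.68e-07) in Huh7. The difference was -0.79 ± 0.11 (edgeR adjusted p = 7.43e-06). TGFB2 shares exon sequence with TGFB2-OT1, a noncoding RNA gene on the same strand, so reads of the pair cannot be told apart there. TGFB3, the remaining isoform, was rare and passed in neither line, at 0.593 ± 0.0557 CPM in HCCLM3 si-circASH2 and 0.732 ± 0.162 CPM in HCCLM3 si-NC libraries (SD, n = 3 each), and 2.06 ± 0.848 CPM in Huh7 si-circASH2 and 1.79 ± 0.279 CPM in Huh7 si-NC libraries (SD, n = 3 each).

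BMP2, a ligand of the BMP branch that liver endothelium also supplies for hepcidin control, moved in opposite directions. It had 75.6, 73.1 and 67.3 CPM in HCCLM3 si-circASH2 libraries, against 85.5, 87.9 and 85.2 CPM in HCCLM3 si-NC libraries. It had 126, 136 and 127 CPM in Huh7 si-circASH2 libraries, against 103, 103 and 97.3 CPM in Huh7 si-NC libraries. Neither pair of groups overlapped. As a log2 fold change this was -0.26 ± 0.05 (edgeR adjusted p = 0.000114) in HCCLM3 and 0.36 ± 0.04 (edgeR adjusted p = 1.05e-06) in Huh7, with a difference of -0.62 ± 0.06 (edgeR adjusted p = 1.9e-07). BMP4, a closely related ligand, was higher only in the Huh7 test, at 8.81, 8.71 and 8.04 CPM in Huh7 si-circASH2 libraries, against 6.86, 5.74 and 6.23 CPM in Huh7 si-NC libraries. Its HCCLM3 groups overlapped, at 20.7, 19.3 and 20.7 CPM in HCCLM3 si-circASH2 libraries, against 21.5, 20.3 and 21.5 CPM in HCCLM3 si-NC libraries. The log2 fold change of BMP4 was -0.06 (edgeR adjusted p = 0.597) in HCCLM3 and 0.44 ± 0.09 (edgeR adjusted p = 0.000632) in Huh7, with a difference of -0.50 ± 0.12 (edgeR adjusted p = 0.00353).

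The remaining ligands encode inhibin and activin beta subunits. INHBE, a subunit made mainly by liver, was higher in HCCLM3, at 1.83, 2.22 and 1.71 CPM in HCCLM3 si-circASH2 libraries, against 0.673, 1.23 and 0.818 CPM in HCCLM3 si-NC libraries. The log2 fold change there was 1.09 ± 0.25 (edgeR adjusted p = 0.00197), and the lowest knockdown library stood above the highest control. In Huh7 the groups overlapped, at 3.66, 3.94 and 3.74 CPM in Huh7 si-circASH2 libraries, against 3.05, 2.87 and 4.66 CPM in Huh7 si-NC libraries. The difference for INHBE (0.99 ± 0.33, edgeR adjusted p = 0.0352) missed the threshold without Huh7 si-circASH2 replicates 1 or 3, Huh7 si-NC replicate 3, HCCLM3 si-NC replicates 1 or 3, or HCCLM3 si-circASH2 replicates 1 or 2, with adjusted p between 0.0502 and 0.116. INHBB, the activin B subunit, fell in HCCLM3, to 77.9, 77.3 and 78.5 CPM in HCCLM3 si-circASH2 libraries, against 86.9, 85.7 and 90.3 CPM in HCCLM3 si-NC libraries. The groups did not overlap, the log2 fold change was -0.17 ± 0.05 (edgeR adjusted p = 0.0108), and the adjusted p was 0.0641 without HCCLM3 si-NC replicate 3, 0.3 with FPKM at a pseudocount of 0.1 and 0.352 with FPKM over all features above 0. INHBA, the activin A subunit, averaged 0.314 CPM in HCCLM3 si-circASH2 and 0.270 CPM in HCCLM3 si-NC, and 0.300 CPM in Huh7 si-circASH2 and 0.241 CPM in Huh7 si-NC, too low to read a change.

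**Figure D2:**
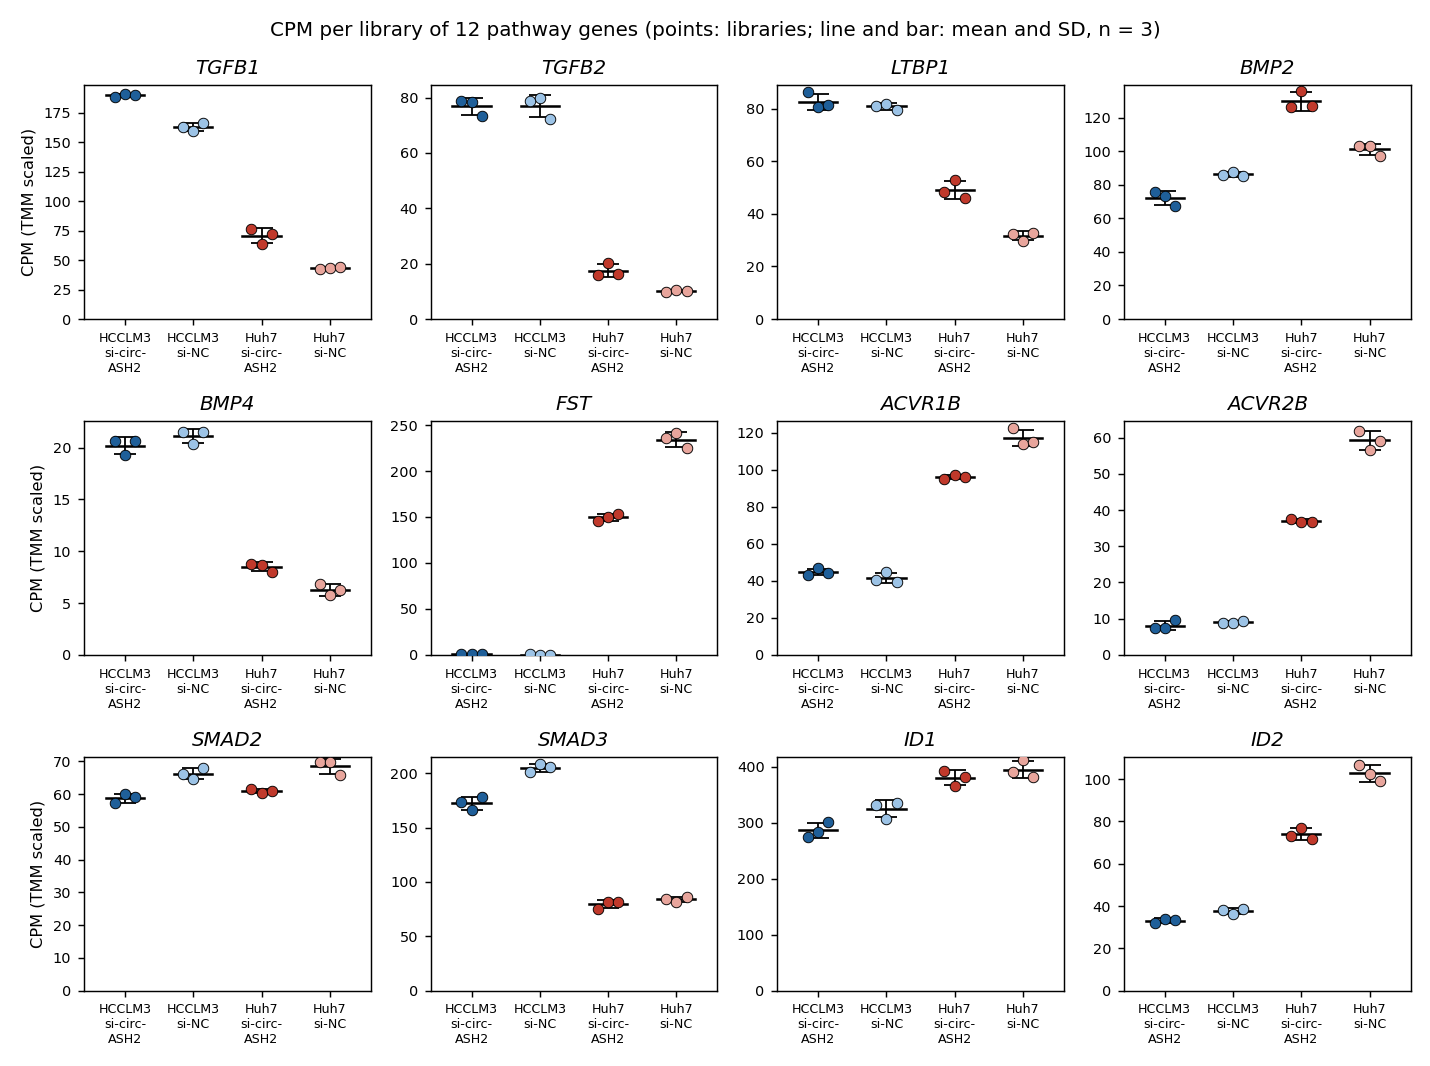
CPM (linear axis from 0) of 12 pathway genes in each library, with HCCLM3 groups left of Huh7 groups and si-circASH2 left of si-NC; points are libraries and lines with bars are the mean and SD of 3. FST is near 0 in all HCCLM3 libraries and lies at 146 to 153 CPM in Huh7 si-circASH2 and 225 to 242 CPM in Huh7 si-NC.

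LTBP1, which tethers latent TGF-beta to the matrix, moved with TGFB1 and TGFB2 in Huh7. It had 86.3, 80.5 and 81.4 CPM in HCCLM3 si-circASH2 libraries, against 81.1, 82 and 79.6 CPM in HCCLM3 si-NC libraries. It had 48.4, 53 and 45.9 CPM in Huh7 si-circASH2 libraries, against 32.5, 29.7 and 32.8 CPM in Huh7 si-NC libraries. The Huh7 groups stood apart and the HCCLM3 groups overlapped. By edgeR the log2 fold change was 0.03 ± 0.05 (edgeR adjusted p = 0.7) in HCCLM3, with an interval of -0.07 to 0.13, and 0.63 ± 0.05 (edgeR adjusted p = 4.2e-09) in Huh7. The difference was -0.60 ± 0.07 (edgeR adjusted p = 2.14e-06). LTBP1 shares exon sequence with an antisense gene, and since the strand of the libraries is not given in the sources used here, reads of the pair cannot be told apart. The same holds for LTBP2 and a noncoding RNA gene on its opposite strand. Of the summed LTBP1 to LTBP4 level in FPKM, LTBP3 made up 72.9% and LTBP1 25.9% in Huh7 si-NC. That sum was 20 ± 0.72 FPKM in Huh7 si-circASH2 and 17.6 ± 0.855 FPKM in Huh7 si-NC (SD, n = 3 each). TGFB1, TGFB2 and LTBP1 encode 2 ligands and a protein that helps to store them. In Huh7 si-circASH2 these genes were 1.63-fold, 1.73-fold and 1.55-fold as high as in Huh7 si-NC. Because all 3 were higher in Huh7, the 250 bases before a RefSeq start of each are given, 5′ to 3′ on the strand of the gene (GRCh38.p14). RefSeq lists 3 starts for LTBP1, of which the most upstream is shown, and which start these cells use was not measured.
TGFB1, chr19:41353923-41354172, minus strand: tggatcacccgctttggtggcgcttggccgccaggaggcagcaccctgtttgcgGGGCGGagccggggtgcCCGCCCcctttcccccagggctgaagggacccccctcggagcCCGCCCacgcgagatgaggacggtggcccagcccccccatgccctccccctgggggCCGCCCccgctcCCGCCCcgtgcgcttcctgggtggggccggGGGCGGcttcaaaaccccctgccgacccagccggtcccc
TGFB2, chr1:218345086-218345335, plus strand: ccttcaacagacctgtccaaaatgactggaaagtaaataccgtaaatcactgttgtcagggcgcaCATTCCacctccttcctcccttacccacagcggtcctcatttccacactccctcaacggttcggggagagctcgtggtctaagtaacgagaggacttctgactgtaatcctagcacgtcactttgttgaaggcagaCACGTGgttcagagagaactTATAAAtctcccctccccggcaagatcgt
LTBP1, chr2:32946703-32946952, plus strand: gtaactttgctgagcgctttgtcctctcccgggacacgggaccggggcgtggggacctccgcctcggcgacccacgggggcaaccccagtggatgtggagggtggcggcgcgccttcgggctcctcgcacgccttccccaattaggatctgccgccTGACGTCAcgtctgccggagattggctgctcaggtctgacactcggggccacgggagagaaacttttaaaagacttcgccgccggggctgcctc
Capitals mark matches, on either strand, to short motifs: in TGFB1 the GC box GGGCGG, in TGFB2 the TEAD motif CATTCC, the E-box CACGTG and a TATA box TATAAA, and in LTBP1 the cAMP response element TGACGTCA. Over 35116 RefSeq promoters of 300 bases, GGGCGG was in 45%, CATTCC in 14%, TATAAA in 11.5%, CACGTG in 7.26% and TGACGTCA in 1.85%. The 3 promoters share none of these motifs with one another in the bases printed. TGACGTCA was also in a promoter of SKIL and PMEPA1 among the 39 members with a RefSeq promoter, and the SMAD motif GTCTAGAC, found in 0.202% of promoters, was in SMAD6 alone among them. The promoters at the other LTBP1 starts hold none of the motifs searched. Such matches are descriptions of the letters, not of factor binding.

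The other latent binding proteins gave smaller or less stable changes. LTBP3, needed for secretion of TGF-beta, fell in HCCLM3, to 38.9, 41.3 and 39.1 CPM in HCCLM3 si-circASH2 libraries, against 52.4, 48.2 and 45.3 CPM in HCCLM3 si-NC libraries. Its groups did not overlap there (log2 fold change -0.29 ± 0.06, edgeR adjusted p = 0.0012), it did not pass in Huh7 (0.06, edgeR adjusted p = 0.49), and the difference was -0.35 ± 0.09 (edgeR adjusted p = 0.00571). LTBP4 was called lower in Huh7 at mean levels below 1 CPM and with overlapping groups, at 0.508, 0.166 and 0.400 CPM in Huh7 si-circASH2 libraries, against 0.492, 0.701 and 1.38 CPM in Huh7 si-NC libraries. That call (-1.26 ± 0.38, edgeR adjusted p = 0.0174) had an adjusted p of 0.119 without Huh7 si-NC replicate 3, 0.0735 without Huh7 si-circASH2 replicate 2 and 0.411 with FPKM at a pseudocount of 1. LTBP2 was called higher in HCCLM3 (0.63 ± 0.23, edgeR adjusted p = 0.039), where it averaged 2.76 ± 0.221 CPM in HCCLM3 si-circASH2 and 1.78 ± 0.303 CPM in HCCLM3 si-NC libraries (SD, n = 3 each), and leaving out HCCLM3 si-NC replicate 1 or 2 or any HCCLM3 si-circASH2 replicate took the adjusted p above the threshold, to between 0.0617 and 0.141.

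TGFBI, a matrix protein induced by TGF-beta, was higher in both lines by small amounts. In HCCLM3 it had 142, 144 and 148 CPM in HCCLM3 si-circASH2 libraries, against 123, 122 and 130.4 CPM in HCCLM3 si-NC libraries. In Huh7 it had 354, 389 and 356 CPM in Huh7 si-circASH2 libraries, against 338, 349 and 332 CPM in Huh7 si-NC libraries. The HCCLM3 groups did not overlap, and the Huh7 control of 349 CPM stood close to the lowest knockdown library. On the log2 scale the change was 0.21 ± 0.04 (edgeR adjusted p = 0.000326) in HCCLM3 and 0.11 ± 0.04 (edgeR adjusted p = 0.0368) in Huh7, where the adjusted p was 0.0911 without Huh7 si-NC replicate 1, 0.12 without Huh7 si-NC replicate 3 and 0.249 without Huh7 si-circASH2 replicate 2.

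Among the type I receptors, ACVR1B, an activin receptor also known as ALK4, fell in Huh7, to 95, 97.3 and 96.1 CPM in Huh7 si-circASH2 libraries, against 122, 114 and 115 CPM in Huh7 si-NC libraries. HCCLM3 had 43.3, 46.8 and 44.4 CPM in HCCLM3 si-circASH2 libraries, against 40.6, 44.6 and 39.6 CPM in HCCLM3 si-NC libraries. The groups stood apart in Huh7 and overlapped in HCCLM3. Its log2 fold change was 0.11 (edgeR adjusted p = 0.103) in HCCLM3 and -0.29 ± 0.04 (edgeR adjusted p = 2.36e-05) in Huh7, with a difference of 0.40 ± 0.07 (edgeR adjusted p = 0.000117). BMPR1B, a BMP receptor, was higher in Huh7 at a low level, with 2.47, 3.51 and 2.97 CPM in Huh7 si-circASH2 libraries, against 1.71, 1.37 and 2.13 CPM in Huh7 si-NC libraries. Its Huh7 libraries did not overlap, and the log2 fold change was 0.05 (edgeR adjusted p = 0.814) in HCCLM3 and 0.78 ± 0.17 (edgeR adjusted p = 0.000808) in Huh7. The Huh7 call was lost with FPKM at a pseudocount of 1 (adjusted p 0.0801) and over all features above 0 (0.0661). The difference (-0.73 ± 0.20, edgeR adjusted p = 0.012) had an adjusted p of 0.054 without Huh7 si-NC replicate 2 and of 0.098 to 0.143 in all 3 FPKM fits.

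The other type I receptors gave small changes. ACVR1, which serves BMPs and activins, was lower in HCCLM3 (log2 fold change -0.21 ± 0.06, edgeR adjusted p = 0.0133), a call with an adjusted p of 0.101 without HCCLM3 si-NC replicate 2 and 0.0657 without HCCLM3 si-circASH2 replicate 3. Its difference between the lines was -0.28 ± 0.09 (edgeR adjusted p = 0.0271), and it missed the threshold without Huh7 si-NC or si-circASH2 replicate 2, HCCLM3 si-NC replicate 2 or HCCLM3 si-circASH2 replicate 3, at 0.0662 to 0.0906. TGFBR1, the type I receptor for TGF-beta, was lower in Huh7 (log2 fold change -0.17 ± 0.06, edgeR adjusted p = 0.0252), with an adjusted p of 0.162 without Huh7 si-NC replicate 2 and 0.168 without Huh7 si-circASH2 replicate 1. BMPR1A, a BMP receptor, passed in neither line.

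Of the type II receptors, ACVR2B, which binds activins and some BMPs, fell in Huh7, to 37.6, 36.7 and 36.8 CPM in Huh7 si-circASH2 libraries, against 61.9, 56.6 and 59.2 CPM in Huh7 si-NC libraries. In HCCLM3 it had 7.32, 7.43 and 9.57 CPM in HCCLM3 si-circASH2 libraries, against 8.81, 8.89 and 9.48 CPM in HCCLM3 si-NC libraries. The Huh7 groups stood far apart, and in HCCLM3 the groups overlapped. Its log2 fold change was -0.16 (edgeR adjusted p = 0.2) in HCCLM3 and -0.68 ± 0.07 (edgeR adjusted p = 3.12e-08) in Huh7, with a difference of 0.52 ± 0.11 (edgeR adjusted p = 0.00171). Summed per length, ACVR2A and ACVR2B had 1.14 ± 0.0881 FPKM in HCCLM3 si-circASH2 and 1.41 ± 0.143 FPKM in HCCLM3 si-NC, and 7.22 ± 0.296 FPKM in Huh7 si-circASH2 and 9.0 ± 0.275 FPKM in Huh7 si-NC (SD, n = 3 each).

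ACVR2A, the other activin type II receptor, was called lower in HCCLM3 (-0.46 ± 0.16, edgeR adjusted p = 0.029) although its libraries overlapped, at 4.2, 3.18 and 2.85 CPM in HCCLM3 si-circASH2 libraries, against 5.55, 5.11 and 3.47 CPM in HCCLM3 si-NC libraries. The adjusted p was 0.102 to 0.154 without HCCLM3 si-NC replicate 1 or 2 or HCCLM3 si-circASH2 replicate 2 or 3, and ACVR2A shares exon sequence with ORC4 on the opposite strand. TGFBR2, the type II receptor for TGF-beta, was higher in HCCLM3, at 0.11 ± 0.03 (edgeR adjusted p = 0.00781) on the log2 scale, and gave 0.08 (edgeR adjusted p = 0.0542) in Huh7. Without HCCLM3 si-NC replicate 1 the adjusted p of TGFBR2 in HCCLM3 was 0.0512. BMPR2, the BMP type II receptor, was called higher in Huh7 (0.17 ± 0.06, edgeR adjusted p = 0.0294), with an adjusted p of 0.0702 to 0.12 without Huh7 si-NC replicate 1 or 3 or Huh7 si-circASH2 replicate 1 or 3.

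Of the coreceptors, TGFBR3 (betaglycan), which presents TGF-beta and inhibin, passed in neither line, at 24.6 ± 0.646 CPM in HCCLM3 si-circASH2 and 22.5 ± 1.12 CPM in HCCLM3 si-NC libraries (SD, n = 3 each), and 60.04 ± 1.82 CPM in Huh7 si-circASH2 and 59.1 ± 3.12 CPM in Huh7 si-NC libraries (SD, n = 3 each). ENG (endoglin), a coreceptor best known in endothelium, was called higher in Huh7 at about 1 CPM (0.88 ± 0.30, edgeR adjusted p = 0.0287). That call had an adjusted p of 0.0594 to 0.105 without Huh7 si-NC replicate 1 or 2 or Huh7 si-circASH2 replicate 2 or 3, and ENG has an antisense neighbour that unstranded reads cannot separate.

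Among the SMADs no member was called higher in either line. SMAD3, a mediator of TGF-beta and activin signals, fell in HCCLM3, to 174, 166 and 178 CPM in HCCLM3 si-circASH2 libraries, against 201, 208 and 206 CPM in HCCLM3 si-NC libraries. In Huh7 it had 75.6, 81.7 and 81.7 CPM in Huh7 si-circASH2 libraries, against 84, 81.5 and 86.2 CPM in Huh7 si-NC libraries. The HCCLM3 groups stood apart and the Huh7 groups overlapped by a small margin. In log2 terms the change was -0.25 ± 0.04 (edgeR adjusted p = 3.23e-05) in HCCLM3 and -0.07 (edgeR adjusted p = 0.192) in Huh7. The difference (-0.17 ± 0.06, edgeR adjusted p = 0.0329) missed the threshold without Huh7 si-NC replicate 1 or 2, Huh7 si-circASH2 replicate 2 or 3, HCCLM3 si-NC replicate 2 or 3 or HCCLM3 si-circASH2 replicate 2, at 0.0523 to 0.0912.

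SMAD2, the partner of SMAD3 in the same branch, was lower in both lines by the counts. It had 57.2, 59.9 and 59.1 CPM in HCCLM3 si-circASH2 libraries, against 66.2, 64.5 and 68 CPM in HCCLM3 si-NC libraries. It had 61.4, 60.3 and 61 CPM in Huh7 si-circASH2 libraries, against 69.7, 69.9 and 65.8 CPM in Huh7 si-NC libraries. Neither pair of groups overlapped. As a log2 fold change this was -0.17 ± 0.04 (edgeR adjusted p = 0.00296) in HCCLM3 and -0.17 ± 0.04 (edgeR adjusted p = 0.00344) in Huh7. With the authors' FPKM in limma, SMAD2 had an adjusted p of 0.468 to 0.535 in Huh7, and of 0.0651 in HCCLM3 over all features above 0. SMAD5, of the BMP branch, was called lower in Huh7 (-0.19 ± 0.06, edgeR adjusted p = 0.0115), with an adjusted p of 0.0809 without Huh7 si-circASH2 replicate 1, and it has an antisense neighbour, SMAD5-AS1. SMAD1 and SMAD9 of the BMP branch and SMAD4, the common SMAD, passed in neither line.

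Short stretches of 3′ UTR (the untranslated end of an mRNA) were looked up for the members in GENCODE 29 on GRCh38, with letters chosen when earlier results of these data were known. The sequence TTATACCA lies in the 3′ UTR of 3.41% of 19115 genes and of 2 members, ACVR2B and SMAD2. TCGGAGAA lies in that of 0.633% of genes and of 1 member, LTBP2. The sites are given with up to 11 bases on each side, 5′ to 3′ on the mRNA strand, with the searched letters in capitals, because these are the members that hold the full 8 letters. The SMAD2 site begins at base 25419 of an annotated 3′ UTR of 32870 bases, that of ACVR2B at base 5986 of 9810 and that of LTBP2 at base 2159 of 2714, and whether these cells make those forms was not measured.
ACVR2B, chr3:38489318-38489325, plus strand: tggagattgttTTATACCAcagattatttt
SMAD2, chr18:47816401-47816408, minus strand: tgttcaggcagTTATACCAgactatctttt
LTBP2, chr14:74498718-74498725, minus strand: atacctcaccaTCGGAGAActtaccatccc
ACVR2B was lower in Huh7, SMAD2 was lower in both lines, and LTBP2 was called higher in HCCLM3. Because the letters were chosen with earlier results of these data known, the shares that follow describe these genes and are no independent test. Of all 551 tested genes with TTATACCA, 38.3% were lower in HCCLM3 and 37.7% in Huh7. Of all 98 tested genes with TCGGAGAA, 31.6% were higher in HCCLM3 and 40.8% in Huh7, beside 16.5% in HCCLM3 and 17.8% in Huh7 of the tested genes with any 3′ UTR. The LTBP2 3′ UTR also holds TTATACC, at chr14:74498732-74498738, a few bases before its TCGGAGAA. The shorter TCGGAGA lies in 2.2% of genes and in INHBB, LTBP2, ENG and SMAD2. CGGAGAA lies in 2.76% of genes and in LTBP2, BMPR1B and SKI. Of these members, INHBB was lower in HCCLM3 and SMAD2 in both lines, ENG and BMPR1B were higher in Huh7, and SKI passed in neither. Calls over all genes with these shorter letters were not counted. Either TTATACC or TATACCA was present in 10 tested members. In HCCLM3 1 of them was higher (LTBP2) and 3 were lower (SMAD2, ACVR2A and ID1). In Huh7 1 was higher (BMPR2, which holds both sequences) and 4 were lower (SMAD5, SMAD2, TGFBR1 and ACVR2B). Over all 1999 tested genes with either sequence, 11% were higher in HCCLM3 and 12.9% in Huh7, and 30.8% were lower in HCCLM3 and 30.6% in Huh7, the lower calls beside 17.2% in HCCLM3 and 17.3% in Huh7 of the 13989 tested genes with any 3′ UTR. A longer 3′ UTR is more likely to hold any given letters, and the part of length was not tested.

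Of the 9 inhibitors, FST (follistatin), which binds and neutralises activins, changed the most in Huh7. It fell to 146, 150.2 and 153 CPM in Huh7 si-circASH2 libraries, against 236, 242 and 225 CPM in Huh7 si-NC libraries. In HCCLM3 it was close to the detection level, with 0.441, 0.464 and 0.772 CPM in HCCLM3 si-circASH2 libraries, against 0.404, 0.210 and 0.392 CPM in HCCLM3 si-NC libraries. The Huh7 groups stood far apart, and each HCCLM3 knockdown library lay above each control by less than 1 CPM. By edgeR the log2 fold change was 0.72 ± 0.28 (edgeR adjusted p = 0.0765) in HCCLM3 and -0.65 ± 0.05 (edgeR adjusted p = 1.42e-10) in Huh7. The difference was 1.37 ± 0.29 (edgeR adjusted p = 0.0011), on a line where all 6 libraries were below 1 CPM.

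SMURF1, a ubiquitin ligase that marks SMADs and receptors for degradation, fell in HCCLM3, to 242, 252 and 250.4 CPM in HCCLM3 si-circASH2 libraries, against 276, 292 and 273 CPM in HCCLM3 si-NC libraries. The groups did not overlap there. Its log2 fold change was -0.18 ± 0.04 (edgeR adjusted p = 0.00118) in HCCLM3 and 0.05 (edgeR adjusted p = 0.394) in Huh7, with a difference of -0.23 ± 0.06 (edgeR adjusted p = 0.00601). The SMURF1 difference had an adjusted p of 0.053 with FPKM at a pseudocount of 0.1 and of 0.0627 over all features above 0. The related ligase SMURF2 was lower in HCCLM3 (log2 fold change -0.22 ± 0.07, edgeR adjusted p = 0.0154), with an adjusted p of 0.0679 without HCCLM3 si-NC replicate 2, 0.0506 without HCCLM3 si-NC replicate 3 and 0.062 without HCCLM3 si-circASH2 replicate 1. BAMBI, a receptor-like protein without a kinase that blunts TGF-beta signalling, was called higher in both lines, by 0.14 ± 0.05 (edgeR adjusted p = 0.0348) in HCCLM3 and 0.14 ± 0.05 (edgeR adjusted p = 0.0494) in Huh7. Both BAMBI calls were lost in many settings, with an adjusted p of up to 0.23 in HCCLM3 (without HCCLM3 si-circASH2 replicate 3) and up to 0.2 in Huh7 (with FPKM over all features above 0).

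The inhibitory SMADs did not pass. SMAD6, which blocks the BMP branch, averaged 10.9 ± 0.491 CPM in HCCLM3 si-circASH2 and 12.1 ± 1.1 CPM in HCCLM3 si-NC libraries (SD, n = 3 each), and 24.4 ± 1.67 CPM in Huh7 si-circASH2 and 27.4 ± 0.366 CPM in Huh7 si-NC libraries (SD, n = 3 each). SMAD7, which can block the TGF-beta and the BMP branch, averaged 18.1 ± 1.29 CPM in HCCLM3 si-circASH2 and 20.00 ± 0.405 CPM in HCCLM3 si-NC libraries (SD, n = 3 each). In Huh7 SMAD7 averaged 21.6 ± 0.548 CPM in Huh7 si-circASH2 and 22.3 ± 1.26 CPM in Huh7 si-NC libraries (SD, n = 3 each). SKI, a corepressor of SMAD target genes, passed in neither line.

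SKIL, a corepressor related to SKI and itself a TGF-beta target, had counts that differed widely between libraries of the same group. It had 44.2, 75.2 and 81 CPM in HCCLM3 si-circASH2 libraries, against 108, 64.4 and 62.6 CPM in HCCLM3 si-NC libraries. It had 80.3, 92.4 and 37.9 CPM in Huh7 si-circASH2 libraries, against 88.1, 85.6 and 86.6 CPM in Huh7 si-NC libraries. One library stood apart in 3 of the 4 groups: HCCLM3 si-circASH2 replicate 1, HCCLM3 si-NC replicate 1 and Huh7 si-circASH2 replicate 3. The highest Huh7 si-circASH2 library was 2.44 times the lowest in CPM and 1.24 times in the authors' FPKM. Over all 4 groups the largest such ratio in FPKM was 1.43, in Huh7 si-NC. On counts the log2 fold change was -0.23 ± 0.37 (edgeR adjusted p = 0.723) in HCCLM3 and -0.31 ± 0.36 (edgeR adjusted p = 0.601) in Huh7. As FPKM, SKIL had 13.4, 14.5 and 17.3 in HCCLM3 si-circASH2 libraries, against 22.8, 19 and 19.2 in HCCLM3 si-NC libraries, with no overlap. On FPKM the HCCLM3 adjusted p was 0.0389 with a pseudocount of 0.1 and 0.0313 with a pseudocount of 1, and 0.0621 over all features above 0, so FPKM fits gave both outcomes for SKIL.

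**Figure D3:**
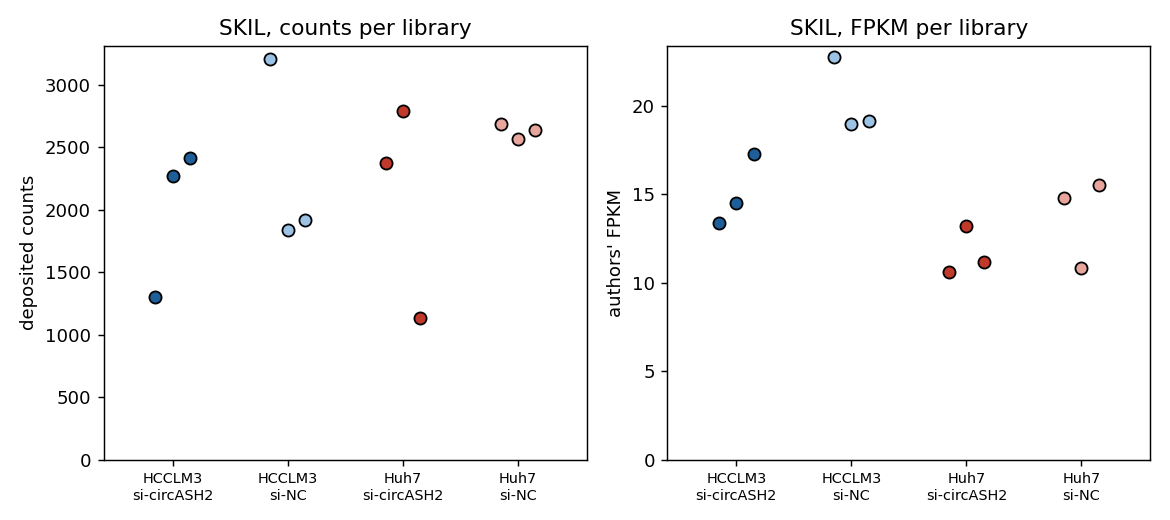
SKIL in each library as deposited counts (left panel) and as the authors' FPKM (right panel), with HCCLM3 groups left of Huh7 groups and si-circASH2 left of si-NC. In Huh7 si-circASH2 the counts of 2371, 2787 and 1136 spread over more than the FPKM of 10.6, 13.2 and 11.2 do.

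The BMP targets in the list are ID1, ID2 and ID3, small proteins that block basic helix-loop-helix transcription factors. ID1 fell in HCCLM3, to 276, 283 and 301 CPM in HCCLM3 si-circASH2 libraries, against 332, 308 and 335 CPM in HCCLM3 si-NC libraries. The HCCLM3 groups did not overlap (log2 fold change -0.18 ± 0.04, edgeR adjusted p = 0.00157). In Huh7 the ID1 groups overlapped and the log2 fold change was -0.05 (edgeR adjusted p = 0.358). ID2 was lower in both lines on counts, at 31.9, 33.9 and 33.6 CPM in HCCLM3 si-circASH2 libraries, against 38, 36.2 and 38.7 CPM in HCCLM3 si-NC libraries. In Huh7 the levels of ID2 were 73.2, 77 and 71.6 CPM in Huh7 si-circASH2 libraries, against 107, 102 and 99 CPM in Huh7 si-NC libraries. Both pairs of ID2 groups stood apart on counts.

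The log2 fold change of ID2 was -0.18 ± 0.05 (edgeR adjusted p = 0.00688) in HCCLM3 and -0.48 ± 0.04 (edgeR adjusted p = 1.75e-08) in Huh7, and the difference was 0.29 ± 0.07 (edgeR adjusted p = 0.00284). On the authors' FPKM none of these ID2 calls held: ID2 averaged 21.9 ± 0.868 FPKM in HCCLM3 si-circASH2 and 22.3 ± 3.8 FPKM in HCCLM3 si-NC, and 48.9 ± 2.98 FPKM in Huh7 si-circASH2 and 56.1 ± 12 FPKM in Huh7 si-NC (SD, n = 3 each). With limma on FPKM the adjusted p for ID2 was 1 in HCCLM3 and 0.388 to 0.48 in Huh7. ID2 also shares exon sequence with ID2-AS1 on the opposite strand. ID3 passed in neither line, at 142 ± 10.4 CPM in HCCLM3 si-circASH2 and 151 ± 6.68 CPM in HCCLM3 si-NC libraries (SD, n = 3 each), and 145 ± 9.45 CPM in Huh7 si-circASH2 and 142 ± 3.91 CPM in Huh7 si-NC libraries (SD, n = 3 each).

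With control siRNA the lines already differed in most of these genes. Of the 41 tested members 15 were higher and 22 were lower in HCCLM3 si-NC than in Huh7 si-NC, or 90.2% called, close to the background of 85.2% of all features, of which 41.6% were higher and 43.6% lower. The lines differ in origin, so this comparison describes 1 line against 1 other. The widest gap was FST, with 0.404, 0.210 and 0.392 CPM in HCCLM3 si-NC and 236, 242 and 225 CPM in Huh7 si-NC libraries (log2 fold change -9.42 ± 0.10, edgeR adjusted p = 1.17e-28). INHBB ran the other way, with 86.9, 85.7 and 90.3 CPM in HCCLM3 si-NC and 0.755, 1.1 and 1.05 CPM in Huh7 si-NC libraries (log2 fold change 6.49 ± 0.09, edgeR adjusted p = 1.92e-26). INHBE, another activin subunit, was lower in HCCLM3, with 0.673, 1.23 and 0.818 CPM in HCCLM3 si-NC and 3.05, 2.87 and 4.66 CPM in Huh7 si-NC libraries (log2 fold change -1.96 ± 0.24, edgeR adjusted p = 7.82e-08). SMAD9 stood at 0.135, 0.105 and 0.327 CPM in HCCLM3 si-NC and 12.6, 16.4 and 14 CPM in Huh7 si-NC libraries.

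TGFB1, TGFB2 and 3 of the 4 LTBP genes were higher in HCCLM3, whereas TGFB3 (-1.29 ± 0.31, edgeR adjusted p = 0.000571) and LTBP3 (-0.22 ± 0.06, edgeR adjusted p = 0.00286) were lower on counts, and LTBP3 gave 0.048 on FPKM (limma adjusted p = 0.545). The log2 fold change of HCCLM3 si-NC over Huh7 si-NC was 1.90 ± 0.05 (edgeR adjusted p = 7.75e-21) for TGFB1 and 2.92 ± 0.08 (edgeR adjusted p = 2.66e-20) for TGFB2. LTBP1 was higher by 1.35 ± 0.05 (edgeR adjusted p = 3.07e-17), and LTBP4 by 5.83 ± 0.16 (edgeR adjusted p = 1.9e-16). SMURF1 was higher in HCCLM3, with 276, 292 and 273 CPM in HCCLM3 si-NC and 52.3, 52.5 and 55.9 CPM in Huh7 si-NC libraries (2.39 ± 0.04, edgeR adjusted p = 3.71e-24), and SMAD3 was higher by 1.29 ± 0.04 (edgeR adjusted p = 3.91e-19). On the other side, all 4 type II receptors were lower in HCCLM3, led by ACVR2B (-2.71 ± 0.08, edgeR adjusted p = 4.11e-20), and so were ACVR1B (-1.50 ± 0.05, edgeR adjusted p = 3.59e-19) and TGFBI (-1.44 ± 0.04, edgeR adjusted p = 2.97e-20).

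Per length, ID1 was the most abundant member in both control groups, at 282 ± 17.1 FPKM in HCCLM3 si-NC and 341 ± 10.2 FPKM in Huh7 si-NC. The next in HCCLM3 si-NC were ID3 at 107 ± 6.47 FPKM, TGFB1 at 52.3 ± 1.8 FPKM and TGFBR2 at 49 ± 0.226 FPKM, each above the next in all 3 libraries. In Huh7 si-NC they were TGFBI at 108 ± 1.69 FPKM, ID3 at 101 ± 2.11 FPKM and FST at 83.7 ± 2.41 FPKM. ID2 and TGFBR2 followed, with overlapping ranges of 48.9 to 69.9 FPKM and 55.5 to 56.2 FPKM. The 3 TGF-beta ligands summed to 66.2 ± 1.61 FPKM in HCCLM3 si-NC and 16.4 ± 0.246 FPKM in Huh7 si-NC, and TGFB1 made up 79% of the sum in HCCLM3 si-NC and 85.3% in Huh7 si-NC. With circASH2 silenced the sum was 74.9 ± 0.662 FPKM in HCCLM3 and 26.2 ± 1.5 FPKM in Huh7. LTBP4 made up 32.4% of the summed LTBP level in HCCLM3 si-NC and 0.857% in Huh7 si-NC.

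**Figure D4:**
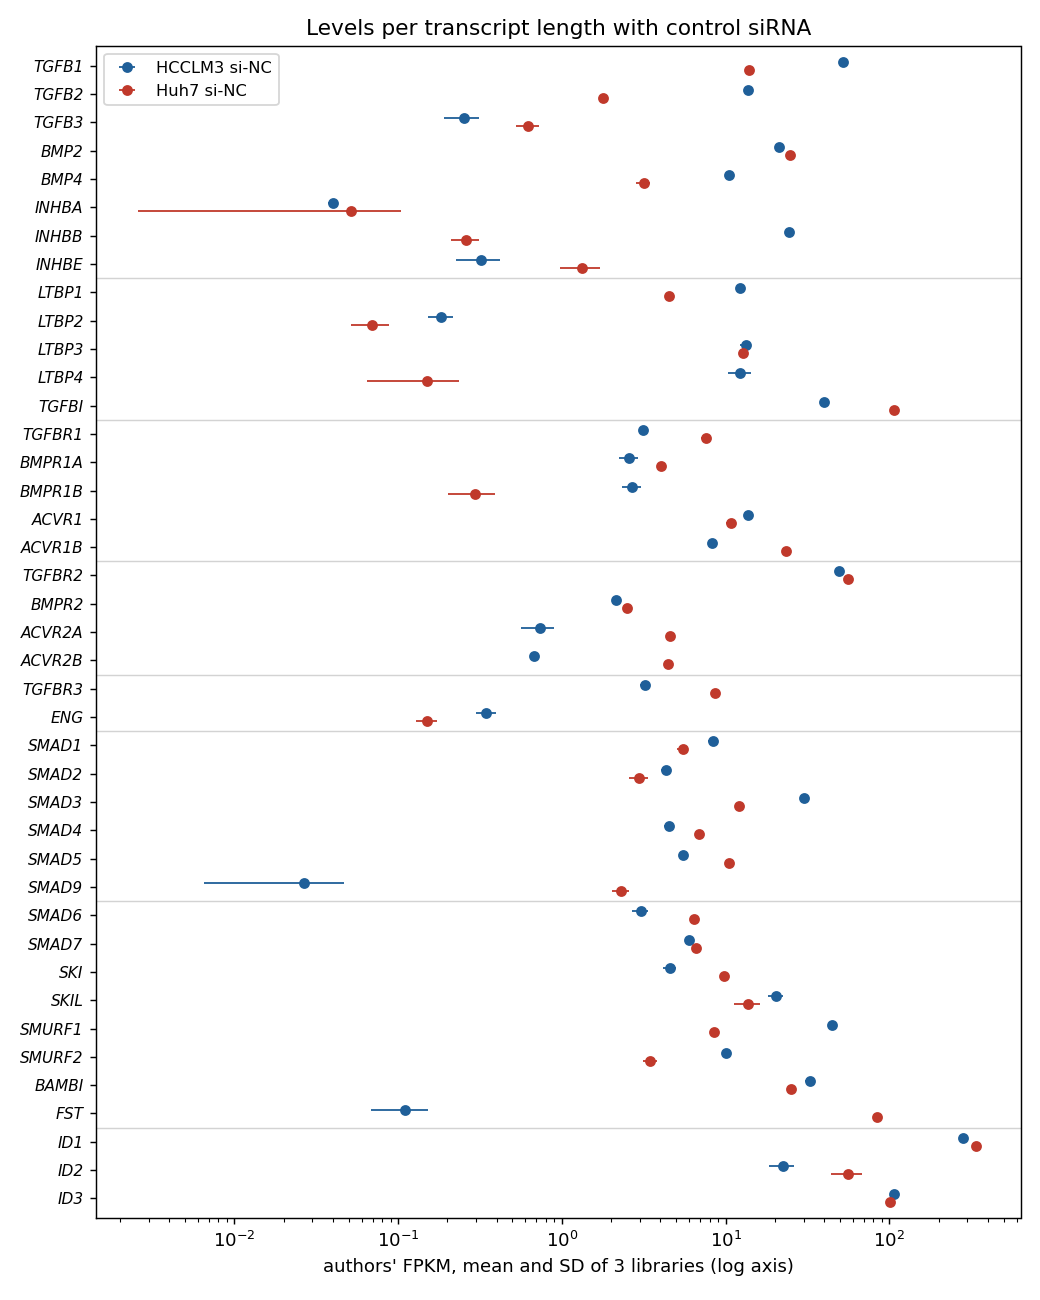
Mean and SD of the authors' FPKM in 3 control libraries (log axis) for the 41 tested genes, HCCLM3 si-NC in blue above Huh7 si-NC in red, in the order of roles. FST (0.111 FPKM in HCCLM3 si-NC and 83.7 FPKM in Huh7 si-NC) and INHBB (24.3 FPKM in HCCLM3 si-NC and 0.261 FPKM in Huh7 si-NC) are farthest apart in opposite directions.

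Another 141 genes of the pathway, in 7 lists, were read beside the members, and 109 of them could be tested. The lists were chosen with earlier results of these data known, so their shares are no independent test. In HCCLM3 19 were higher and 25 lower (40.4%), and in Huh7 33 were higher and 12 lower (41.3%), beside the backgrounds of 30.6% and 31.4% given above. The difference between the lines passed for 6 in the positive and 33 in the negative direction (35.8%, background 20.9%). The knockdown backgrounds beside these lists include features with only an assembled identifier. Tested genes with an annotated 3′ UTR had larger shares, 16.5% higher and 17.2% lower in HCCLM3, and 17.8% higher and 17.3% lower in Huh7.

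Of 27 tested genes that TGF-beta and SMAD3 are known to induce or use, 2 were higher and 7 lower in HCCLM3, and 13 were higher and 1 lower in Huh7, or 33.3% called in HCCLM3 and 51.9% in Huh7, beside 30.6% of all features in HCCLM3 and 31.4% in Huh7. Their median log2 fold change was -0.14 in HCCLM3 and 0.48 in Huh7, and the difference was negative and past the threshold for 16 of 27 (59.3%) and positive for none, beside 11.3% negative and 9.6% positive over all features. Because this list too was chosen with earlier results of these data known, the shares describe its genes and do not test a response to TGF-beta. CDKN1A, the cell cycle inhibitor p21, had 69.1, 72.5 and 79.9 CPM in HCCLM3 si-circASH2 libraries, against 128, 125 and 123 CPM in HCCLM3 si-NC libraries. It had 23.5, 24 and 25.7 CPM in Huh7 si-circASH2 libraries, against 13.9, 15.1 and 15.6 CPM in Huh7 si-NC libraries. The groups did not overlap in either line and moved in opposite directions, with log2 fold changes of -0.77 ± 0.05 (edgeR adjusted p = 5.09e-11) in HCCLM3 and 0.71 ± 0.06 (edgeR adjusted p = 8.95e-09) in Huh7, with a difference of -1.48 ± 0.08 (edgeR adjusted p = 7.47e-12). CDKN2B, the cell cycle inhibitor p15, had 72, 70.6 and 70.8 CPM in Huh7 si-circASH2 libraries, against 24, 23.8 and 24.8 CPM in Huh7 si-NC libraries (1.56 ± 0.05, edgeR adjusted p = 2.08e-16), and in HCCLM3 it did not pass (0.11, edgeR adjusted p = 0.134). TAGLN, an actin-binding protein, was lower in HCCLM3 (-1.0 ± 0.19, edgeR adjusted p = 0.000227) and higher in Huh7 (0.94 ± 0.15, edgeR adjusted p = 4.13e-05). TUFT1 was higher in both lines, by 0.59 ± 0.04 (edgeR adjusted p = 1.76e-10) in HCCLM3 and 1.39 ± 0.06 (edgeR adjusted p = 5.92e-15) in Huh7, and so was CYR61, a matrix-associated protein also induced by YAP, by 0.33 ± 0.08 (edgeR adjusted p = 0.003) in HCCLM3 and 1.79 ± 0.07 (edgeR adjusted p = 1.46e-14) in Huh7. The transcription factor gene JUNB was lower in HCCLM3 (-0.56 ± 0.07, edgeR adjusted p = 1.4e-06), and FN1, which encodes fibronectin, was lower in both lines (-0.14 ± 0.03, edgeR adjusted p = 0.00201 in HCCLM3 and -0.14 ± 0.03, edgeR adjusted p = 0.00129 in Huh7).

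**Figure D5:**
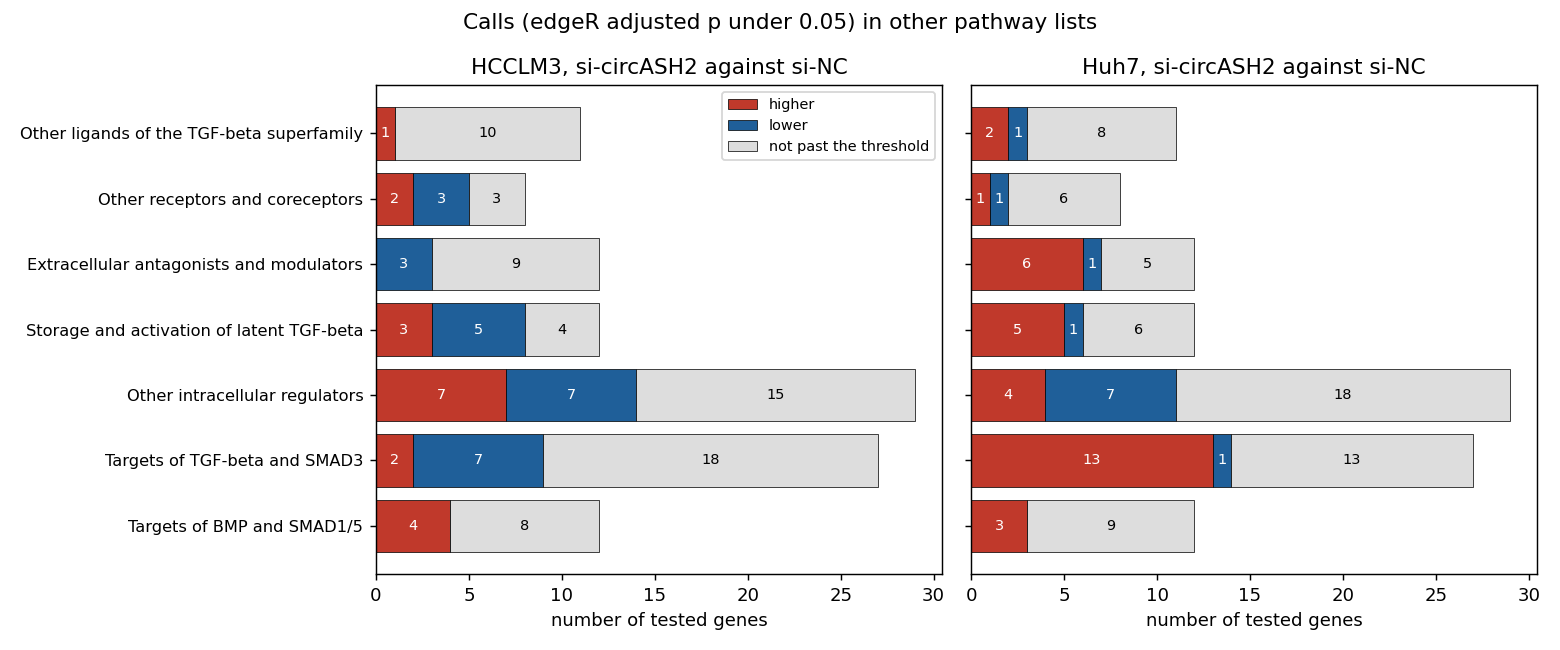
Number of tested genes in each of 7 other pathway lists that were higher, lower or not past an edgeR adjusted p of 0.05 after knockdown, in HCCLM3 (left panel) and Huh7 (right panel). Of 27 targets of TGF-beta and SMAD3, 2 were higher and 7 lower in HCCLM3, and 13 were higher and 1 lower in Huh7. The lists were chosen with earlier results of these data known.

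Of 12 tested targets of BMP and SMAD1/5, 4 were higher and none lower in HCCLM3, and 3 were higher and none lower in Huh7, or 33.3% called in HCCLM3 and 25% in Huh7, beside 30.6% of all features in HCCLM3 and 31.4% in Huh7. HAMP, which encodes hepcidin, had 0.882, 1.39 and 1.18 CPM in HCCLM3 si-circASH2 libraries, against 0.269, 0.385 and 0.262 CPM in HCCLM3 si-NC libraries. It had 36.8, 31.7 and 34.4 CPM in Huh7 si-circASH2 libraries, against 25.5, 23.4 and 26.6 CPM in Huh7 si-NC libraries. The groups stood apart in both lines, and the log2 fold change was 1.91 ± 0.26 (edgeR adjusted p = 5.19e-06) in HCCLM3, at a level near 1 CPM, and 0.45 ± 0.08 (edgeR adjusted p = 0.000154) in Huh7. The Huh7 call of HAMP had an adjusted p of 0.172 with limma on FPKM at a pseudocount of 0.1. HEY1, a transcriptional repressor, was higher in HCCLM3 (0.97 ± 0.10, edgeR adjusted p = 5.42e-08) and had 0.39 (edgeR adjusted p = 0.0506) in Huh7. ATOH8, a transcription factor that acts on hepcidin, was higher in HCCLM3 (0.55 ± 0.17, edgeR adjusted p = 0.0147), with an adjusted p of 0.0659 to 0.0804 without HCCLM3 si-NC replicate 2 or HCCLM3 si-circASH2 replicate 1 or 3. DLX2, a homeobox factor, was higher in Huh7 (0.99 ± 0.28, edgeR adjusted p = 0.00773).

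Of 12 tested genes that store or activate latent TGF-beta, 3 were higher and 5 lower in HCCLM3, and 5 were higher and 1 lower in Huh7, or 66.7% called in HCCLM3 and 50% in Huh7, beside 30.6% of all features in HCCLM3 and 31.4% in Huh7. FURIN, the protease that cleaves the TGF-beta precursor, fell in both lines, to 34.5, 34.9 and 37.1 CPM in HCCLM3 si-circASH2 libraries, against 53.3, 51 and 57.9 CPM in HCCLM3 si-NC libraries (-0.61 ± 0.05, edgeR adjusted p = 6.12e-09). In Huh7 it had 435, 385 and 402 CPM in Huh7 si-circASH2 libraries, against 599, 596 and 573 CPM in Huh7 si-NC libraries (-0.53 ± 0.04, edgeR adjusted p = 4.18e-09), with no overlap between groups in either line. FBN1, the fibrillin that anchors latent complexes, was higher in both, by 0.45 ± 0.08 (edgeR adjusted p = 0.000171) in HCCLM3 and 1.53 ± 0.16 (edgeR adjusted p = 1.37e-07) in Huh7. ITGAV, the alpha subunit of integrins that release TGF-beta, was lower in HCCLM3 (-0.40 ± 0.04, edgeR adjusted p = 2.01e-08) and higher in Huh7 (0.33 ± 0.04, edgeR adjusted p = 3.26e-07). The plasminogen activators went opposite ways in HCCLM3, where PLAT was lower (-1.41 ± 0.10, edgeR adjusted p = 1.02e-10) and PLAU higher (0.97 ± 0.07, edgeR adjusted p = 7.21e-10). ITGB1, the integrin beta 1 subunit, was lower in HCCLM3 (-0.42 ± 0.03, edgeR adjusted p = 4.8e-10), and MMP14, a membrane protease, was higher in Huh7 (0.26 ± 0.05, edgeR adjusted p = 0.000561).

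Of 12 tested extracellular antagonists and modulators, none was higher and 3 were lower in HCCLM3, and 6 were higher and 1 lower in Huh7, or 25% called in HCCLM3 and 58.3% in Huh7, beside 30.6% of all features in HCCLM3 and 31.4% in Huh7. FSTL3, a relative of follistatin that also binds activins, had 25.1, 24.9 and 24.4 CPM in HCCLM3 si-circASH2 libraries, against 47.6, 48.1 and 52.6 CPM in HCCLM3 si-NC libraries (-1.0 ± 0.06, edgeR adjusted p = 3.05e-11). In Huh7 FSTL3 was higher by 0.32 ± 0.08 (edgeR adjusted p = 0.00276), opposite to FST in that line. BMP1, a protease that processes matrix and latent complexes, was lower in HCCLM3 (-0.25 ± 0.07, edgeR adjusted p = 0.00515) and higher in Huh7 (0.53 ± 0.08, edgeR adjusted p = 7.21e-06). FSTL1, a secreted follistatin-like protein, had 10.03, 10.8 and 8.11 CPM in Huh7 si-circASH2 libraries, against 3.87, 3.84 and 3.15 CPM in Huh7 si-NC libraries (1.41 ± 0.20, edgeR adjusted p = 7.19e-06), and BGN, the proteoglycan biglycan, was higher in Huh7 by 0.60 ± 0.09 (edgeR adjusted p = 1.08e-05). TWSG1, a BMP modulator, was lower in Huh7 (-0.15 ± 0.05, edgeR adjusted p = 0.0385), a call lost without Huh7 si-NC replicate 1 or 2, Huh7 si-circASH2 replicate 1 or 2, HCCLM3 si-NC replicate 1 or HCCLM3 si-circASH2 replicate 2, at 0.0504 to 0.189.

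Of 29 tested intracellular regulators, 7 were higher and 7 lower in HCCLM3, and 4 were higher and 7 lower in Huh7, or 48.3% called in HCCLM3 and 37.9% in Huh7, beside 30.6% of all features in HCCLM3 and 31.4% in Huh7. The small phosphatases that act on SMAD linker regions fell in both lines. The log2 fold change of CTDSPL was -0.62 ± 0.05 (edgeR adjusted p = 3.02e-09) in HCCLM3 and -0.39 ± 0.05 (edgeR adjusted p = 1.82e-06) in Huh7. CTDSP1 gave -0.47 ± 0.05 (edgeR adjusted p = 1.73e-07) in HCCLM3 and -0.31 ± 0.05 (edgeR adjusted p = 4.38e-05) in Huh7, and CTDSP2 gave -0.40 ± 0.04 (edgeR adjusted p = 2.35e-08) in HCCLM3 and -0.21 ± 0.04 (edgeR adjusted p = 0.000139) in Huh7. DAB2, an adaptor that links TGF-beta receptors to SMADs, was higher in both (0.23 ± 0.05, edgeR adjusted p = 0.000814 in HCCLM3 and 0.51 ± 0.05, edgeR adjusted p = 2.94e-08 in Huh7). USP4 and USP9X, deubiquitinases of the pathway, were higher in both lines. USP4 gave 0.23 ± 0.05 (edgeR adjusted p = 0.00108) in HCCLM3 and 0.26 ± 0.06 (edgeR adjusted p = 0.000879) in Huh7, and USP9X gave 0.12 ± 0.03 (edgeR adjusted p = 0.00831) in HCCLM3 and 0.20 ± 0.03 (edgeR adjusted p = 7.25e-05) in Huh7. NEDD4L, a ubiquitin ligase for SMADs, was higher in HCCLM3 (0.30 ± 0.05, edgeR adjusted p = 6.74e-05), a call that FPKM did not keep (adjusted p 0.271 to 0.336).

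Of 11 tested other ligands, 1 was higher and none lower in HCCLM3, and 2 were higher and 1 lower in Huh7, or 9.09% called in HCCLM3 and 27.3% in Huh7, beside 30.6% of all features in HCCLM3 and 31.4% in Huh7. BMP6, a main inducer of hepcidin, had 34.7, 33.5 and 36.9 CPM in HCCLM3 si-circASH2 libraries, against 20.4, 20.2 and 21.6 CPM in HCCLM3 si-NC libraries (0.76 ± 0.09, edgeR adjusted p = 6.51e-07), with no overlap. BMP6 was also called higher in Huh7 (edgeR adjusted p = 0.00702), but there it was near the level of 3 counts, with 0.201 ± 0.0659 CPM in Huh7 si-circASH2 and 0.0334 ± 0.0578 CPM in Huh7 si-NC libraries (SD, n = 3 each). GDF11, an activin-like ligand, was higher in Huh7 (0.30 ± 0.05, edgeR adjusted p = 4.24e-05). GDF1, another ligand of the family, fell in Huh7, to 0.237, 0.497 and 0.334 CPM in Huh7 si-circASH2 libraries, against 1.48, 3.11 and 2.82 CPM in Huh7 si-NC libraries (-2.78 ± 0.40, edgeR adjusted p = 1.9e-05), and its reads may belong to CERS1, with which it shares a transcript. Of 8 tested other receptors, 2 were higher and 3 lower in HCCLM3, and 1 was higher and 1 lower in Huh7, or 62.5% called in HCCLM3 and 25% in Huh7, beside 30.6% of all features in HCCLM3 and 31.4% in Huh7. RGMB, a BMP coreceptor, was lower in both lines (-0.57 ± 0.12, edgeR adjusted p = 0.000551 in HCCLM3 and -0.70 ± 0.12, edgeR adjusted p = 5.36e-05 in Huh7), and HFE2 (hemojuvelin), the BMP coreceptor for hepcidin, was higher in Huh7 (1.24 ± 0.21, edgeR adjusted p = 7.18e-05). CD109 and NEO1, which bind TGF-beta and the RGM proteins, were called lower in HCCLM3 (log2 fold changes of -0.13 and -0.15). Both calls were lost with FPKM, and CD109 also without HCCLM3 si-NC replicate 2 (0.0587) or HCCLM3 si-circASH2 replicate 3 (0.0635), and NEO1 without HCCLM3 si-NC replicate 1 (0.182) or HCCLM3 si-circASH2 replicate 1 (0.152).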

How the data were processed

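The deposited gene counts of 12 libraries, whole numbers per gene per library per the file headers, were analysed; libraries were made from total RNA with a SMARTer mRNA kit, per the labels' protocols. The deposited FPKM of the same genes, scaled by the authors for transcript length and depth, served for levels between genes and as an alternative. Builds named in the submitters' processing notes are GRCm38, hg38 and mm10, with no role stated. For the aligner, counter, annotation and strand, the sources used here give nothing. Of 23583 features, 2206 were at 0 throughout and 3854 had only an assembled identifier.

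Counts were fitted with edgeR 4.0.16 in R 4.3.3 over all 12 libraries: filterByExpr over the 4 groups (minimum count of 10) left 16946 features, with TMM scaling, 1 coefficient per group, a robust quasi-likelihood test with 8 residual degrees of freedom and Benjamini-Hochberg adjustment over all features tested (threshold 0.05). The common biological coefficient of variation was 5.65%. The script was tested on simulated data. Chi-square per degree of freedom between replicates lay between 3.55 and 7.27, a spread beyond counting error. It does not show whether the libraries were separate cultures. Each library was counted once. The 4 comparisons were the knockdown in each line, the HCCLM3 effect minus the Huh7 effect, and HCCLM3 si-NC over Huh7 si-NC. Standard errors are the absolute log2 fold change over the square root of F.

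Alternatives were other scaling factors, no filter, DESeq2 1.42.0, each line alone, a replicate block, limma 3.58.1 on log2(FPKM + 0.1) or log2(FPKM + 1), and leaving out each library. FPKM fold changes carry that pseudocount, which understates changes of low genes. Members and lists were chosen with earlier results of these data known. Named were up to 10 members per knockdown and 8 at baseline with the smallest p past the threshold. They had at least 1 CPM (5 CPM at baseline) in the higher group, and overlap between groups was no part of the rule. Also named were the members whose knockdown effects differed between lines, and up to 3 genes per list and direction. Other members are given for completeness. Members were matched by symbol to GENCODE 29 (GRCh38) and RefSeq promoters (GRCh38.p14, 39 of 42 matched). Counting error alone is covered by the level of 3 counts.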

Additional observations from a re-analysis of the deposited data

Results flagged for a closer look

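The effect of knockdown differed between HCCLM3 and Huh7 for 15 members, by the edgeR test of the difference itself (HCCLM3 log2 fold change minus Huh7 log2 fold change, adjusted p under 0.05 over all features). The difference was negative for BMP2 (-0.62), LTBP1 (-0.60), TGFB2 (-0.79), TGFB1 (-0.48), BMP4 (-0.50), LTBP3 (-0.35), SMURF1 (-0.23), BMPR1B (-0.73), ACVR1 (-0.28) and SMAD3 (-0.17). It was positive for ACVR1B (0.40), FST (1.37), ACVR2B (0.52), ID2 (0.29) and INHBE (0.99). On FPKM the differences of INHBE, BMPR1B, ACVR1, SMAD3, SMURF1 and ID2 missed the threshold in 1 or more of 3 fits. Of all these, FST was below 1 CPM in all HCCLM3 libraries, and the ID2 difference had an adjusted p of 0.598 to 0.67 when FPKM replaced the counts. Groups of 3 libraries are too small to look for single outlying samples.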

How the results depend on the processing

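Members counted as changed were recomputed under other settings. With limma on FPKM at a pseudocount of 0.1, 3 members were lower in Huh7 and 6 had a negative difference between the lines. At a pseudocount of 1, 6 were higher and 4 lower in Huh7, and 3 had a positive difference. Over all features with FPKM above 0, 6 were higher and 3 lower in Huh7, 6 were lower in HCCLM3, and 6 had a negative difference. Leaving out 1 library at a time gave 3 to 6 members higher and 8 to 12 lower in HCCLM3, 6 to 11 higher and 7 to 8 lower in Huh7, 4 to 6 positive and 8 to 11 negative differences, and 15 higher and 21 to 22 lower at baseline. The baseline fold change of LTBP3 turned to 0.048, 0.045 and 0.048 on FPKM (pseudocount 0.1, pseudocount 1, all features), that of SMAD2 to 0.54, 0.44 and 0.54, and that of SKIL to 0.58, 0.54 and 0.58; on counts they were -0.22, -0.05 and -0.15. The cause was not tested. With the replicate number as a block, 6 members were higher and 12 lower in HCCLM3 and 10 higher and 8 lower in Huh7. Same-numbered libraries did not deviate together (correlations between -0.0341 and 0.0408, beside -0.073 to 0.0594 for other pairs). This does not show whether same-numbered libraries were handled as pairs, and the main fit did not pair them. Over the named genes, members and comparisons, 4269 alternative values kept direction and side of the threshold, 161 lost the call and 30 gained it. Another 83 changed sign with neither value past the threshold, such as the LTBP4 difference (1.04, and -0.17 on FPKM at a pseudocount of 1), and the 9 baseline values above changed sign with 1 of the values past it. With 3 libraries a group, small changes of genes under 1 CPM could not be read.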
